A study of Zea mays with 46 samples.

Results

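The comparison described here asks in which genes the difference between maize stocks carrying the P1-rr and the P1-ww allele was not the same in pericarp as in silk. It rests on 4 of the 46 samples of the series, which are 4 of its 9 RNA-seq samples and hold 12 of the 27 libraries of the count table. The measure is the log2 change of P1-rr over P1-ww in pericarp minus the same log2 change in silk, so a positive value is a change that was more positive in pericarp. The groups were P1-rr silk, P1-ww silk, P1-rr pericarp and P1-ww pericarp, with 3 libraries in each, and both stocks carry the inbred name A619 in the labels. Silk was taken unfertilized, at 0 days after pollination, and pericarp from ears at 14 days after pollination. Each library pooled tissue of 2 field plants. The tissue field of the pericarp samples says kernels, and the design text says that pericarps were collected from the ears.

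P1 is a MYB transcription factor of maize that switches on flavonoid biosynthesis. P1-rr is the allele known for red pericarp and red cob, where P1 drives the 3-deoxyflavonoid pigments called phlobaphenes, and P1-ww is the allele known for colourless pericarp and cob. In silk, P1 is known for the synthesis of C-glycosyl flavones such as maysin, which deter the corn earworm. Silk and pericarp are both maternal floral tissue: silk is the style of the floret, and pericarp is the ovary wall that surrounds the growing kernel.

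The gene identifiers of the count table are not paired with names in the sources used here, and none of the 39005 was found in the reference table. Genes are therefore given by identifier, with no function. For the same reason the P1 gene itself could not be looked up as a check of the labels, nor could flavonoid genes or the markers of silk, pericarp, endosperm and embryo. Whether endosperm or embryo RNA was in the pericarp libraries was not tested. The stocks can differ elsewhere in the genome, and such differences cannot be told apart from the P1 alleles. In whole tissue, fewer cells of a type and less RNA per cell cannot be told apart either. The 2 tissues also differ in age and pollination.

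The silk libraries held 20490591 to 28224572 counts and the pericarp libraries 18910941 to 25175345. Pericarp libraries varied more within a group: the median over genes of the SD of log2(CPM + 0.5) was 0.245 in P1-rr pericarp, 0.189 in P1-ww pericarp and 0.139 in each silk group. CPM is the count of a gene scaled to 1000000 counts of its library. In P1-ww, 18397 of the 24364 genes tested differed between pericarp and silk, so the allele comparison was made on very different backgrounds.

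The P1-rr effect differed between the tissues in 2902 of 24364 genes tested, which is 11.9% (edgeR quasi-likelihood test on 12 libraries, Benjamini-Hochberg adjusted p under 0.05 over all genes tested). It was more positive in pericarp in 1497 genes and more positive in silk in 1405. Which direction held more genes depended on the setting: the first held 1377 of 2827 with DESeq2 size factors, 1159 of 2618 with no filter on low counts and 809 of the 1756 differences of 2-fold or more. The median size of the difference was 1.15 on the log2 scale among these genes, against 0.438 among all genes tested, and it reached 2-fold in those 1756. The effect was larger in pericarp, whatever its sign, in 2090 of the 2902 genes (72%), against 61.4% of all genes tested. The count fell by more than 1.5 times when 1 of 5 silk libraries was left out: to 1545 and 1651 without P1-rr silk replicate 1 or 2, and to 1859, 1627 and 1718 without P1-ww silk replicate 1, 2 or 3. Without P1-rr pericarp replicate 1 it was 4195, of which 2396 were more positive in pericarp. Without P1-rr pericarp replicate 2 it was 2512, of which 1153 were.

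Most of these genes were read in both tissues, so few were genes that only 1 tissue uses. Of the 1497 genes with the more positive effect in pericarp, 1383 (92.4%) reached 1 CPM in at least 1 stock in each tissue, and of the 1405 in the other direction 1236 (88%) did. Among all genes tested the share was 77.7%. Genes that reached 1 CPM in pericarp but not in silk made up 32 of the 1497 (2.14%) and 94 of the 1405 (6.69%), against 7.97% of all genes tested. Those that reached it in silk but not in pericarp made up 70 (4.68%) and 59 (4.20%), against 8.27%. A group at or below 3 counts over its 3 libraries, where a fold change has little meaning, occurred in 68 of the 2902 (2.34%), against 6.06% of all genes tested.

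**Figure D1:**
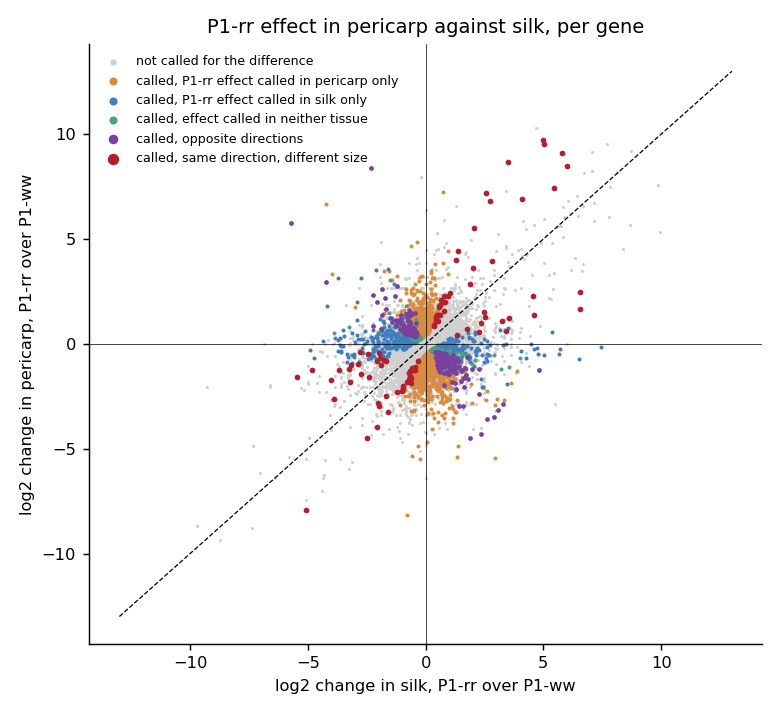
Each point is 1 of the 24364 genes tested, with the log2 change of P1-rr over P1-ww in silk on the x axis and in pericarp on the y axis, both from the 12-library edgeR fit; the dashed line marks equal change. Colours give the 2902 genes whose effect differed between tissues, by where the effect itself passed the test: 1902 in pericarp only lie along the vertical axis, 495 in silk only along the horizontal axis, 186 in opposite quadrants and 90 in the same direction with unequal size.

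The 2902 genes were sorted by whether the effect within each tissue passed the same test. In that fit, with 1 spread for all 12 libraries, P1-rr and P1-ww differed in 2224 genes in silk (9.13% of those tested) and in 6354 in pericarp (26.1%). With each tissue fitted alone the order turned round: 4982 of 22558 genes in silk (22.1%) and 2878 of 22209 in pericarp (13%). Since the libraries varied less in silk than in pericarp, the sorting was made under both. By the shared fit 1902 genes differed in pericarp only, 495 in silk only, 186 in both with opposite signs and 90 in both with the same sign, and 229 passed in neither tissue. With each tissue fitted alone the counts became 1140 in pericarp only, 875 in silk only, 198 with opposite signs and 573 in neither tissue, and those of the same-sign classes are given with each class. A gene that the filter on low counts left out of a tissue's own fit was sorted there as not passing. A gene that passed in 1 tissue is here a gene whose difference between tissues passed its own test, and the effect in the other tissue was not shown to be 0.

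**Figure D2:**
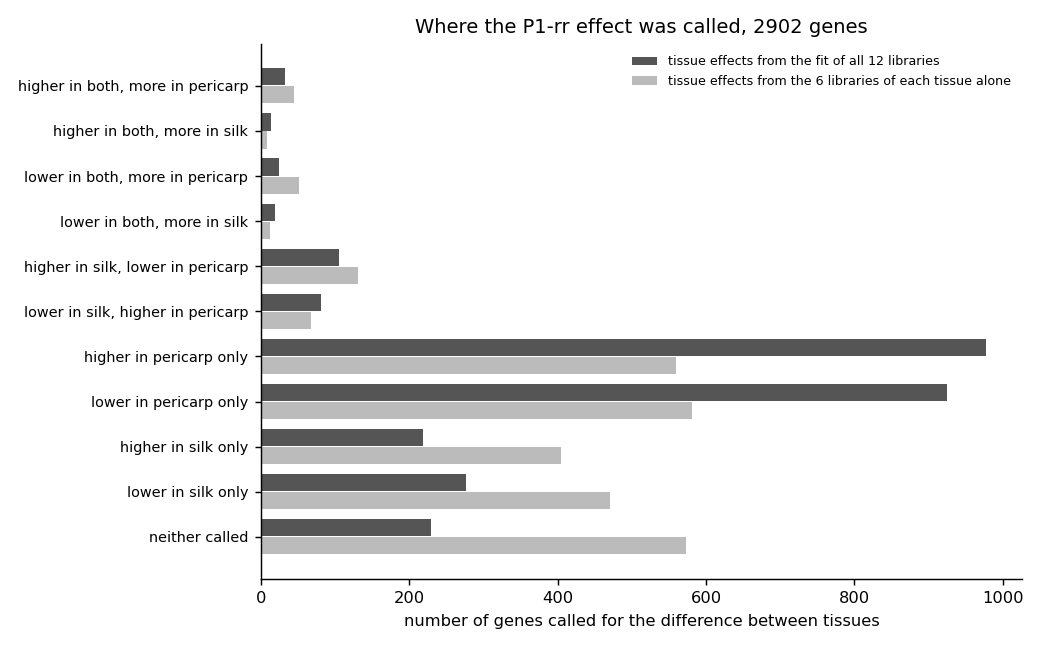
Number of genes (x axis) in each class of the 2902 genes whose P1-rr effect differed between pericarp and silk. Dark bars take the effects within each tissue from the fit of all 12 libraries and light bars from the 6 libraries of each tissue alone: genes higher in pericarp only number 977 in the first and 559 in the second.

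A small class rose with P1-rr in both tissues and rose more in pericarp. It held 33 genes, all of which stayed in it when each tissue was fitted alone, which gave 45. Their median log2 change was 0.952 in silk and 2.31 in pericarp, and the ranges were 0.364 to 5.99 and 0.861 to 9.72. In pericarp 11 of them rose at least 16-fold, and in silk 6 did. All 33 were read in both tissues. Levels differed between the tissues with both alleles. The P1-rr level was higher in pericarp than in silk in 21 of the 33, and the P1-ww level was higher in silk than in pericarp in 26.

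The largest difference in this class was that of Zm00001d007403. In silk its level was 6.02, 5.93 and 6.59 CPM in the P1-ww libraries and 48.9, 106 and 66.2 CPM in the P1-rr libraries. In pericarp it was 2.19, 1.94 and 2.33 CPM in P1-ww and 1310, 699 and 725 CPM in P1-rr. The stocks did not overlap in either tissue, and P1-rr pericarp stood above all other groups. The log2 change was 3.52 ± 0.32 (SE, n = 3 libraries a group) in silk, which is 11.5-fold, and 8.68 ± 0.40 in pericarp, which is 409-fold. The difference of 5.16 ± 0.46 had an edgeR adjusted p of 9.06e-05 and kept its call under all 19 alternative settings.

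Libraries outside the comparison gave 2 further readouts of this class. In leaf protoplasts of the B73 x A632 F1 hybrid, from seedlings 12 days old, P1-rr driven by the strong viral 35S promoter was compared with an empty vector in 3 libraries each. The sample fields and the design text give this cross, while the growth text names A632 x Mo17 for the field-grown hybrid, and the sample fields were followed. Same-numbered protoplast libraries deviated together, so the replicate number was used as a block. With the block, 16 of the 32 members tested (50%) were higher with 35S:P1 and none was lower, against 5% higher and 1.08% lower among the 21828 genes tested in both fits. Without the block 6 of the 32 were called, against 0.137% of the same genes. The sign alone was positive in 25 of the 32 (78.1%) and in 46.1% of all genes, and the median log2 change was 1.40 in the class and -0.05 over all genes.

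These protoplast counts depended on the libraries. Without protoplast replicates 1, 2 or 3 of both vectors, 10, 17 and 15 of the 32 were called higher, against 0.617%, 10.6% and 3.07% of all genes. When 1 library of the 12 was left out the class held 17 to 50 genes and 12 to 17 of its tested members were called higher in protoplasts, which is 33.3 to 77.8%. Among 262 genes that were higher with P1-rr in both tissues without a called difference between them, 50 of 232 tested (21.6%) were called higher in protoplasts. Whether that share and the 50% differ was not tested. For Zm00001d007403, the level was 1.12, 1.84 and 1.16 CPM with the empty vector and 1770, 242 and 4290 CPM with 35S:P1. The groups did not overlap, and the 35S:P1 libraries differed widely among themselves. The blocked log2 change was 9.75 ± 0.97, with an edgeR adjusted p of 0.000621.

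Silk of the B73 x A632 hybrid gave the other readout. A hybrid set beside its parents is not a comparison of P1 alleles. P1 levels in these stocks could not be looked up, so a link to P1 was not tested. In 17 of the 33 genes (51.5%) the mean level in hybrid silk was at least 1 CPM and at least 2-fold above each parent, against 582 genes or 2.39% of all tested. B73 and A632 are the parents by the sample fields of the silk libraries. Zm00001d007403 reached 607, 432 and 410 CPM in hybrid silk. It was at 10.3, 3.38 and 4.41 CPM in B73 silk and 1.76, 2.50 and 0.564 CPM in A632 silk. The hybrid libraries stood above every library of the parents and above P1-rr silk, and below P1-rr pericarp. These 27 libraries were counted together by the authors, but levels of different stocks were set side by side here with no test.

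**Figure D3:**
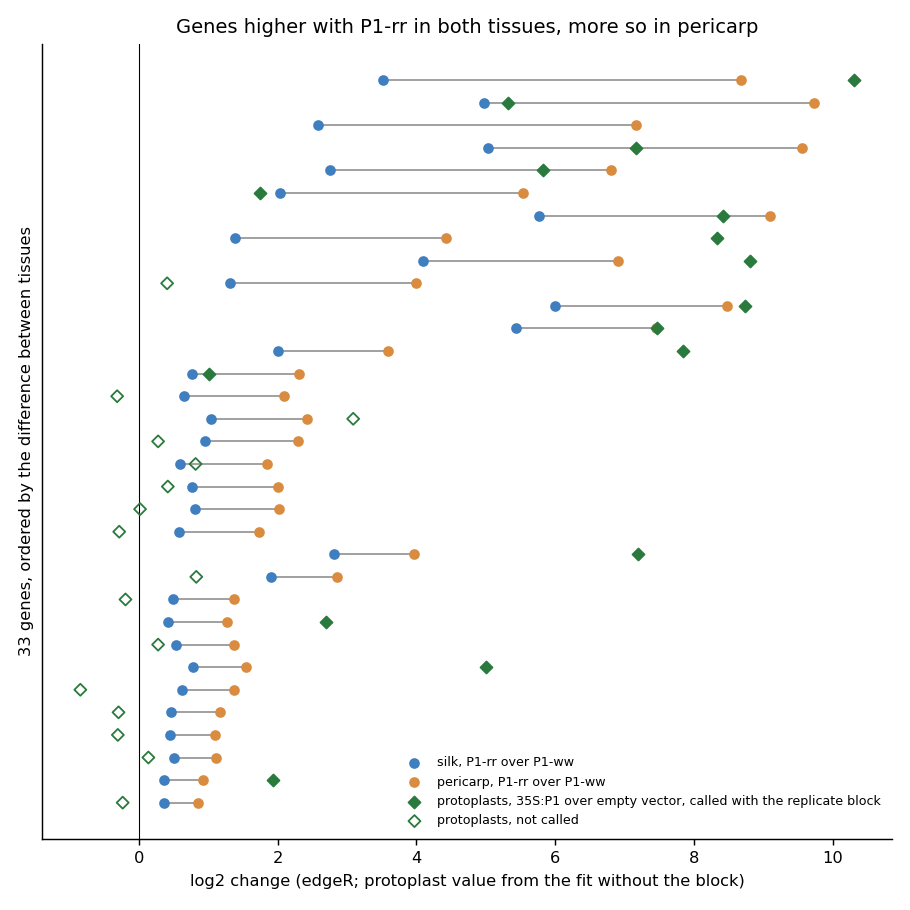
Log2 changes (x axis) of the 33 genes higher with P1-rr in both tissues and more so in pericarp, 1 gene a line, ordered by the difference between tissues with the largest at the top. Circles give silk and pericarp, joined by a line; diamonds give 35S:P1 over empty vector in protoplasts, filled for the 16 genes called higher with the replicate block. Silk circles lie between 0.364 and 5.99 and pericarp circles between 0.861 and 9.72.

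The mirror class, higher with P1-rr in both tissues and more in silk, held 13 genes. With each tissue fitted alone it held 8, all of them among the 13. The median log2 change was 3.23 in silk and 1.24 in pericarp. Its example, which like the other class examples was chosen after values were seen, is Zm00001d028505. In silk it was at 0.606, 0.417 and 0.342 CPM in P1-ww and 14.5, 11.0 and 9.98 CPM in P1-rr. In pericarp it was at 1.41, 1.26 and 1.32 CPM in P1-ww and 2.70, 3.10 and 5.26 CPM in P1-rr. P1-rr lay above P1-ww in every library of both tissues, with the wider gap in silk. The difference between tissues was -3.22 ± 0.42, with an edgeR adjusted p of 0.000954. In protoplasts 4 of the 12 members tested (33.3%) were called higher with the block, beside 5% of all genes, and Zm00001d028505 was not among them.

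Genes lower with P1-rr in both tissues split into 25 with the larger fall in pericarp and 19 with the larger fall in silk. All 25 kept their class with each tissue fitted alone, where the class grew to 51. Of the 19, 11 did, in a class that then held 12. The first class had a median log2 change of -0.706 in silk and -1.82 in pericarp, and the second -2.79 in silk and -0.995 in pericarp. In protoplasts 1 of 24 and 0 of 19 were called lower with 35S:P1, beside 1.08% of all genes. Called higher were 3 of the 24 (12.5%) and 1 of the 19 (5.26%), beside 5% of all genes.

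Zm00001d036575 had the largest difference among the 25. It was at 58.8, 47.2 and 37.3 CPM in P1-ww silk and 1.24, 1.15 and 1.96 CPM in P1-rr silk. In pericarp it was at 41.6, 30.4 and 34.9 CPM in P1-ww and 0.159, 0.119 and 0.171 CPM in P1-rr. The P1-ww tissues overlapped, and P1-rr pericarp lay below P1-rr silk in every library. Its level was 34-fold lower with P1-rr in silk and 244-fold lower in pericarp. The difference of -2.84 ± 0.46 had an edgeR adjusted p of 0.00303. Mean levels in silk of B73 (0.224 CPM), A632 (0.0302 CPM) and their hybrid (0.145 CPM) were low too. Among silk groups only P1-ww stood high. The pericarp fall rests on 2170 counts in P1-ww and 10 in P1-rr. With all 27 libraries in the fit the adjusted p was 0.139.

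Among the 19 with the larger fall in silk the example is Zm00001d029290. It was at 21.3, 20.0 and 21.2 CPM in P1-ww silk and 0.673, 0.493 and 1.08 CPM in P1-rr silk. In pericarp it was at 10.3, 10.9 and 11.8 CPM in P1-ww and 3.70, 4.73 and 6.20 CPM in P1-rr. The stocks did not overlap in either tissue. The log2 change was -4.84 ± 0.26 in silk and -1.23 ± 0.22 in pericarp, and the difference of 3.60 ± 0.33 had an edgeR adjusted p of 0.000107.

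The effect passed the test in both tissues with opposite signs in 186 genes. Of these, 105 were higher with P1-rr in silk and lower in pericarp, and 81 were lower in silk and higher in pericarp. The sorting by each tissue alone gave 131 and 67, with 66 and 37 genes in both sortings. Most changes were modest, with medians of 0.916 and -0.998 in the first class and -0.777 and 0.831 in the second. In protoplasts 11 of 99 and 4 of 78 were called higher, which is 11.1% and 5.13% beside the 5% of all genes.

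The example of the first pattern is Zm00001d044153. It was at 0.848, 0.834 and 0.927 CPM in P1-ww silk and at 6.73, 6.69 and 6.95 CPM in P1-rr silk. In pericarp the order was the reverse, with 17.9, 17.3 and 15.6 CPM in P1-ww and 1.11, 1.11 and 2.48 CPM in P1-rr. The groups did not overlap within either tissue. It was 7.50-fold higher with P1-rr in silk and 11.3-fold lower in pericarp, a difference of -6.40 ± 0.38 with an edgeR adjusted p of 2.54e-06. In protoplasts its level varied more between libraries than between vectors, from 7.02 to 202 CPM.

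The second pattern is seen in Zm00001d048702, a gene far more abundant in silk. It was at 54.0, 44.5 and 59.1 CPM in P1-ww silk and 19.6, 22.1 and 29.7 CPM in P1-rr silk. In pericarp it was at 0.292, 0.194 and 0 CPM in P1-ww and 0.740, 1.43 and 1.37 CPM in P1-rr. P1-rr was the lower stock in every silk library and the higher stock in every pericarp library, at a pericarp level that rests on 10 counts in P1-ww and 82 in P1-rr. The log2 change was -1.19 ± 0.25 in silk and 2.76 ± 0.52 in pericarp, and the difference of 3.95 ± 0.57 had an edgeR adjusted p of 0.00162.

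Pericarp only was the largest class by either sorting. By the shared fit 977 genes were higher and 925 lower with P1-rr in pericarp, of which 556 and 578 kept the class with each tissue fitted alone. Genes not tested in silk alone, such as Zm00001d029062, could keep it too. Median log2 changes in pericarp were 0.829 and -1.06. In silk the same genes had medians of -0.148 and 0.189. Of the 1902, 1762 (92.6%) were read in both tissues. In protoplasts 51 of 945 (5.40%) and 68 of 872 (7.80%) were called higher, beside 5% of all genes. Called lower were 12 (1.27%) and 11 (1.26%), beside 1.08%. The share of 7.80% lies above that of all genes and belongs to the genes lower with P1-rr. Whether it differs was not tested.

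Zm00001d040364 is an example of a gene higher in pericarp only. It was at 1.46, 1.11 and 0.508 CPM in P1-ww pericarp and 13.6, 35.6 and 21.0 CPM in P1-rr pericarp. In silk it was low, at 0.242, 0.510 and 0.586 CPM in P1-ww and 0.779, 1.11 and 0.768 CPM in P1-rr. The stocks did not overlap in either tissue, but the silk log2 change of 0.95 ± 0.50 did not pass (edgeR adjusted p = 0.288) and the pericarp change of 4.42 ± 0.42 did (edgeR adjusted p = 2.55e-05). The difference was 3.48 ± 0.67, with an edgeR adjusted p of 0.00718, and 0.0832 with all 27 libraries in the fit. In protoplasts it rose from 3.80, 5.73 and 1.49 CPM to 379, 191 and 757 CPM with 35S:P1. The protoplast groups did not overlap, and the blocked log2 change was 6.64 ± 0.70 with an edgeR adjusted p of 0.000812.

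Zm00001d044043 is an example of a gene lower in pericarp only. It was at 89.0, 85.1 and 85.0 CPM in P1-ww pericarp and 2.27, 1.87 and 1.88 CPM in P1-rr pericarp. In silk it was at 63.1, 77.0 and 69.5 CPM in P1-ww and 61.6, 51.3 and 69.3 CPM in P1-rr. P1-rr pericarp stood apart from the other 3 groups, which lay between 51.3 and 89.0 CPM, and the silk stocks overlapped. The pericarp level fell 45.1-fold. The difference between tissues was -5.24 ± 0.21 with an edgeR adjusted p of 8.44e-08, and it kept its call under all 19 alternative settings.

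Silk only held 219 genes that were higher and 276 that were lower with P1-rr, of which 210 and 269 kept the class with each tissue fitted alone. Genes not tested in pericarp alone, such as Zm00001d029195, could keep it too. Median log2 changes in silk were 1.03 and -1.32, and in pericarp -0.218 and 0.198. Of the 495, 405 (81.8%) were read in both tissues and 64 (12.9%) in silk only. In protoplasts 21 of 206 of the higher genes (10.2%) were called higher and none lower. Of the lower genes 11 of 256 (4.30%) were called higher and 15 (5.86%) lower. Among all genes 5% were called higher and 1.08% lower, so the share of lower genes called higher is near that of any gene.

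The largest negative difference of all genes with at least 5 CPM in a group was in this class, at Zm00001d029195. It was at 1.90, 1.90 and 1.76 CPM in P1-ww silk and 345, 296 and 358 CPM in P1-rr silk. In pericarp it stayed below 1 CPM in both stocks, at 0.584, 0.339 and 0.508 CPM in P1-ww and 0.476, 0.397 and 0.471 CPM in P1-rr. P1-rr silk stood alone, and the pericarp stocks overlapped. The silk log2 change was 7.43 ± 0.16, which is 173-fold, and the difference of -7.60 ± 0.35 had an edgeR adjusted p of 2.03e-07. Hybrid silk held 3.82 to 6.04 CPM, and in protoplasts the blocked change of 0.28 ± 0.70 did not pass (edgeR adjusted p = 0.861).

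Zm00001d010375 was lower with P1-rr in silk alone. It was at 5.17, 4.31 and 3.12 CPM in P1-ww silk and 0.106, 0.164 and 0.154 CPM in P1-rr silk. In pericarp it was at 7.40, 7.12 and 3.65 CPM in P1-ww and 2.43, 7.55 and 5.52 CPM in P1-rr. The silk stocks did not overlap and the pericarp stocks did. P1-rr was 29.9-fold lower in silk, on 285 and 11 counts, and the difference of 4.60 ± 0.64 had an edgeR adjusted p of 0.00133. Mean levels in silk of B73 (0.0601 CPM), A632 (0.0714 CPM) and their hybrid (0.0618 CPM) were low too. Here also P1-ww alone stood high among silk groups.

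**Figure D4:**
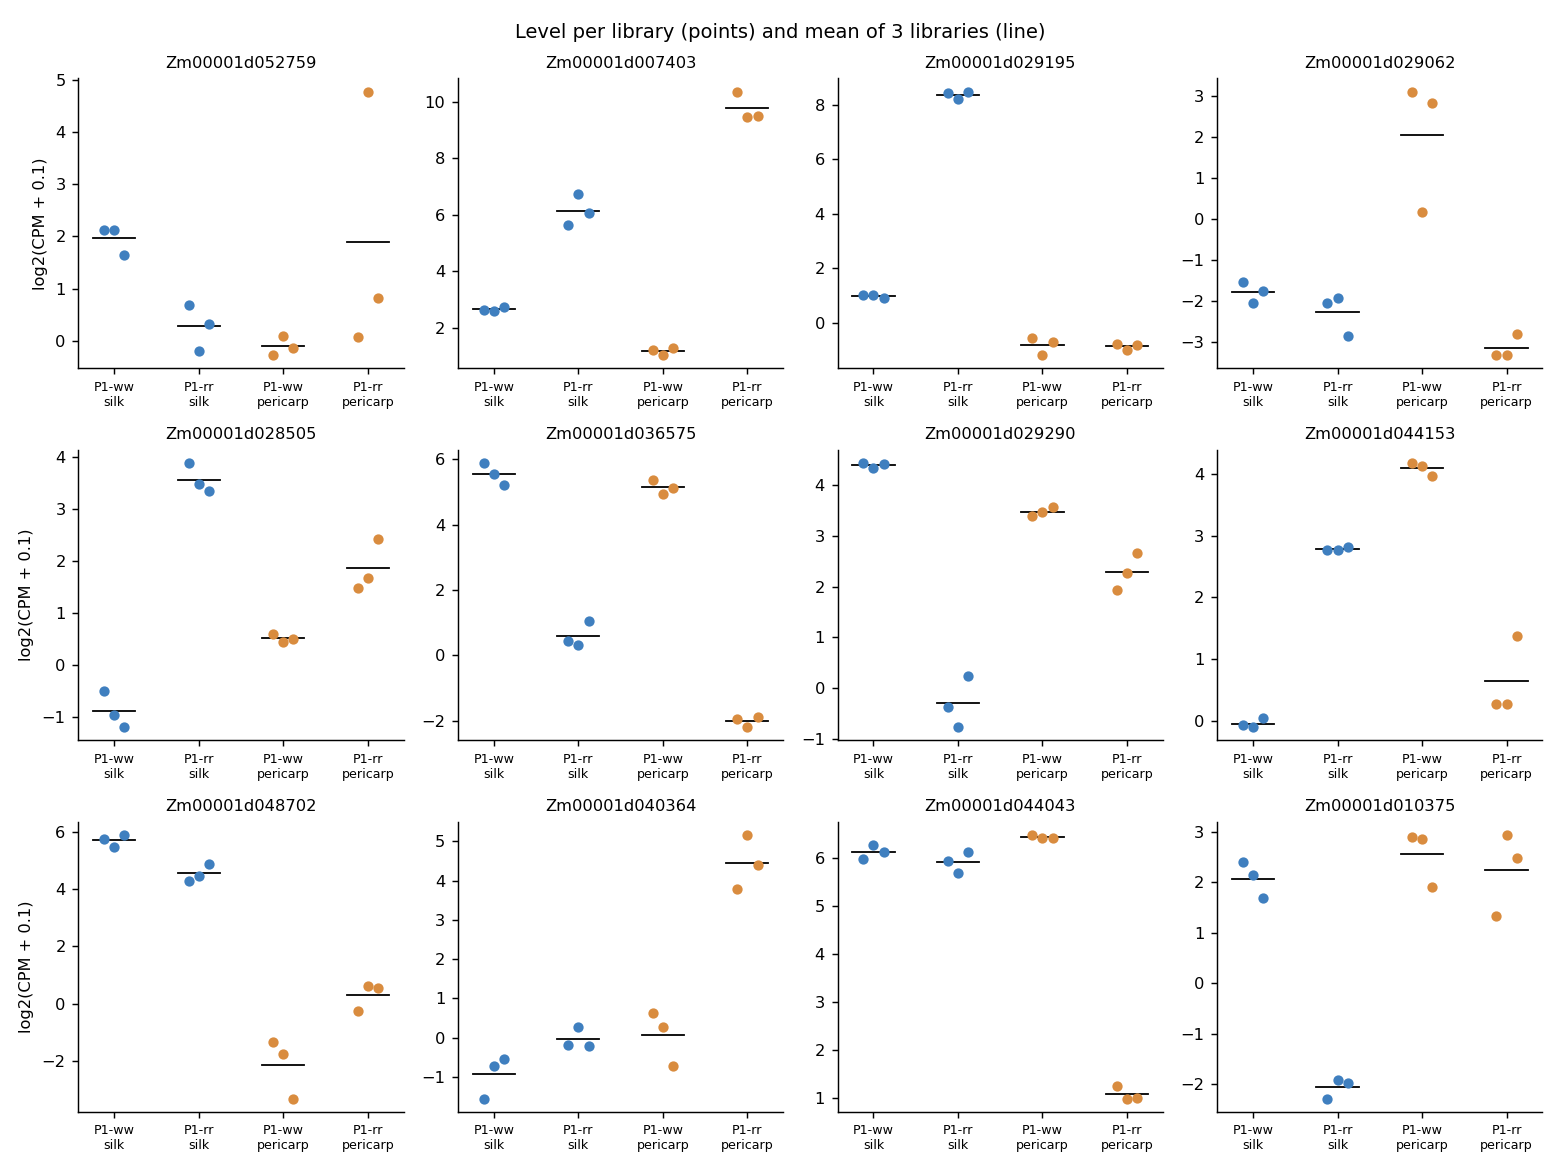
Level of 12 named genes in each of the 12 libraries, as log2(CPM + 0.1) on the y axis, by stock and tissue on the x axis; points are libraries, lines are means of 3 and each panel has its own scale. In the panel of Zm00001d052759 a single P1-rr pericarp library, at 27.2 CPM, lies far above the others, while in that of Zm00001d044153 the stocks change order between silk and pericarp.

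Of the 2 largest differences in each direction, 2 rested on few libraries or few counts. Zm00001d052759 had the largest positive difference, 5.27 ± 1.34 (edgeR adjusted p = 0.0252). Its P1-rr pericarp libraries were at 0.952, 27.2 and 1.67 CPM, and the P1-ww pericarp libraries at 0.730, 0.969 and 0.812 CPM. By the shared fit it was sorted as higher in pericarp only, with log2 changes of -1.78 ± 0.92 in silk and 3.49 ± 0.98 in pericarp. Without P1-rr pericarp replicate 2 the difference was 2.34 and still passed (edgeR adjusted p = 0.0113). The size of the value thus rests largely on that library. Whether the pericarp change alone would pass without it is not given here. The call was lost under 9 of 18 alternative settings, with an edgeR adjusted p of up to 0.0663. DESeq2, the remaining setting, gave no result for this gene. With each tissue fitted alone it was lower with P1-rr in silk, with an edgeR adjusted p of 0.00122, and its pericarp change had an edgeR adjusted p of 0.0947.

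Zm00001d029062 had the second largest negative difference, -7.39 ± 1.73 (edgeR adjusted p = 0.0177). It was at 8.52, 1.02 and 7.06 CPM in P1-ww pericarp, and P1-rr pericarp held 1 count in 3 libraries, so P1-ww stood 371 times higher (exact 95% Poisson limits 66.2 and 14700, counting error only). In silk both stocks lay between 0.0384 and 0.242 CPM. Low levels in 3 of the 4 groups leave little on which to compare the tissues, and the call was lost without P1-rr silk replicate 1 or 2. Among called genes below 5 CPM in every group, 12 had a larger positive and 1 a larger negative fitted difference than the second gene named in that direction.

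The share of called genes varied along the identifiers. In bins of 100 consecutive identifier numbers with at least 20 genes tested, 128 of 508 bins had a called share of 15% or more. How many such bins an even spread would give was not computed. The longest run of adjacent bins of this kind was 11 bins, against 5 for the next, and covered the numbers 28400 to 29499. The run was chosen by the calls themselves after values were seen, so its share is a description, and the positions of the genes were not looked up. Of the 591 genes tested in it, 145 (24.5%) had a P1-rr effect that differed between tissues, 74 more positive in pericarp and 71 in silk, against 11.6% of the other 23773 genes. A further 52 of the 591 passed in both tissues with no called difference between them, against 519 of the 23773. The run is thus not particular to effects that differ between tissues.

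By class, the run held 7 of the 25 genes lower in both tissues with the larger fall in pericarp and 7 of the 19 with the larger fall in silk. It held 23 of the 219 genes higher in silk only and 24 of the 276 lower in silk only. The pericarp-only classes had lower shares, with 33 of 977 higher genes (3.38%) and 32 of 925 lower genes (3.46%). Those with opposite signs had 2.86% and 3.70%. Of the 33 genes higher in both and more in pericarp, 3 (9.09%) lay in it, and its share of all genes tested was 2.43%. The run was chosen by calls and each class holds only called genes, so shares above 2.43% are partly fixed in advance. Of all 2902 called genes, 145 lay in the run. Zm00001d029195, Zm00001d029062, Zm00001d028505 and Zm00001d029290 have numbers in this run. The single bin with the highest share, 24 of 53 genes (45.3%), covered the numbers 44100 to 44199 and holds Zm00001d044153.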

How the data were processed

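RNA-seq counts per gene and library were used as the authors deposited them, as raw counts of 39005 genes in 27 libraries with no normalization. The submitters' processing notes, pooled here over all samples of the series, name bcl2fastq 2.20.0, FastQC, Trimmomatic, Bowtie2 2.3.4.1 and HISAT2 2.0.4, with B73 RefGen_v4. Which of these tools made the RNA-seq counts was not separated. Neither the counting program nor its strand setting nor the annotation is stated in those notes or in the labels. Genes that share reads or overlap are therefore uncertain. Peak lists were not used here, since genes could not be placed on that build.

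Counts were fitted with edgeR 4.0.16 in R 4.3.3, using TMM factors, filterByExpr, 1 mean per group over 12 libraries (8 residual degrees of freedom) and two-sided quasi-likelihood tests with Benjamini-Hochberg adjustment over all genes tested. Classes were read from the same fit. The SE of a log2 change was its size divided by the square root of its F value. Alternatives were DESeq2 1.42.0, limma 3.58.1 voom with sample weights, other scaling, no filter, all 27 libraries, replicate blocks and each library left out.

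Members, classes and lists were chosen with earlier results of these data known. With no gene names, the rule named the 2 largest differences in each direction among called genes with a mean of at least 5 CPM in a group. A further example per class, the largest that also had more than 3 counts in every group and the same class with each tissue fitted alone, was chosen after values were seen. Lists of flavonoid genes and cell markers could not be matched.

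Deviations from the group means correlated between same-numbered protoplast libraries (r across genes 0.63, 0.73 and 0.84, at most 0.31 between other numbers), so these were paired. That pairing comes from the data, not the labels. Silk and pericarp libraries were not taken as pairs, by a minimum r of 0.1. In silk r was 0.069, 0.058 and 0.062 for the same number and at most 0.0027 between other numbers. In pericarp it was 0.13, -0.21 and -0.25, and at most 0.43 between other numbers. Whether silk numbers mark weak pairs was not tested.

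Replicate libraries of a group differed far beyond sampling noise (chi-square over degrees of freedom from 7.4 to 72.7), so none was counted as a duplicate. P-values set a difference between groups against the spread between these libraries, and do not cover variation between stocks.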

Additional observations from a re-analysis of the deposited data

Results flagged for a closer look

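The 2902 genes whose P1-rr effect differed between pericarp and silk by the test of that difference, in the edgeR fit of 12 libraries, are listed here because the same contrast gave unlike results in 2 tissues. The same holds for each named gene. The difference was more positive in pericarp for Zm00001d052759 (5.27), Zm00001d007403 (5.16), Zm00001d010375 (4.60), Zm00001d048702 (3.95), Zm00001d029290 (3.60) and Zm00001d040364 (3.48), on the log2 scale. It was more positive in silk for Zm00001d029195 (-7.60), Zm00001d029062 (-7.39), Zm00001d044153 (-6.40), Zm00001d044043 (-5.24), Zm00001d028505 (-3.22) and Zm00001d036575 (-2.84). The signs of the effect itself were opposite in the tissues, and both passed the test, in Zm00001d044153 and Zm00001d048702. The size of the value of Zm00001d052759 rests largely on 1 library. DESeq2 gave no result for that gene. With groups of 3 libraries, single outlying values were not tested for.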

How the results depend on the processing

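The number of genes with a differing effect was 2902 and lay between 1545 and 4195 with 1 library left out. It was 240 with all 27 libraries in the fit, 1761 with a replicate block within tissue, 2517 with a replicate block for each number over both tissues, and 1756 for differences of 2-fold or more. The silk count of 2224 became 6767 with voom, 410 with all 27 libraries, 1471 with the replicate block within tissue and 4982 with silk alone, and 950 to 2960 with 1 library left out. The pericarp count of 6354 became 1400 with all 27 libraries and 2878 with pericarp alone, and 4770 to 7488 with 1 left out.

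The class of 33 genes held 71 with voom, 5 with all 27 libraries, 20 with the replicate block within tissue and 17 to 50 with 1 library left out. The 186 genes with opposite signs became 315 with DESeq2, 484 with voom, 10 with all 27 libraries, 119 with that block and 66 to 271. The 1902 in pericarp only became 167 with all 27 libraries, 1157 with that block, 1140 with each tissue fitted alone and 1044 to 2869. The 495 in silk only became 751 with DESeq2, 1127 with voom, 43 with all 27 libraries, 322 with that block, 875 with each tissue fitted alone and 221 to 610. The protoplast count of 35 became 1577 with the replicate block and 657 with DESeq2, and 0 to 96 with 1 library left out. The cause of these shifts was not tested.

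Over the 12 named genes, 214 of 227 results under alternatives kept direction and call, 13 lost the call and 0 reversed. For Zm00001d052759 DESeq2 gave no result. Same-numbered libraries correlated by 0.069, 0.058 and 0.062 in silk, against at most 0.0027 between other numbers. In pericarp they correlated by 0.13, -0.21 and -0.25, against at most 0.43. The block is therefore no test of pairs in pericarp, and whether silk numbers mark weak pairs was not tested. Scaling by DESeq2 size factors gave 2827 genes, and moved the median of all genes by less than 0.1 on the log2 scale. The promoter windows around peaks were not run, for want of gene positions on the build of the peaks. A group at or below 3 counts occurred in 68 of the 2902 genes, where depth limits the fold change.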
